A study of Mus musculus with 14 samples.

Results

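The interval chr4:40903610-43773993 of mm10 spans 2.870384 Mb around the Ccl21 genes of mouse chromosome 4. Its members were chosen by position and count from the deposited gene count table: every gene of the GENCODE M21 annotation that lies wholly inside the interval and has at least 10 counts summed over the 14 libraries. Of 135 annotated genes in the interval, 127 met this minimum, out of 38070 such genes in the whole table. The interval itself was set around genes already known to be lower in mice with the IRAK4 mutation, so both comparisons of mutant with intact mice are given below as a description only, counts of calls included. Each library held bulk RNA of the hippocampus of a single mouse aged 10 months. MRL mice (4 libraries) are B6.MRL-Faslpr/J mice, which carry the lpr mutation of Fas. MRL-IRAK4-KD mice (4 libraries) are MRL mice crossed with mice whose IRAK4 lacks kinase activity. C57BL/6 mice (3 libraries) carry neither mutation, and IRAK4-KD mice (3 libraries) carry the kinase-dead IRAK4 alone. All 4 groups are on a C57BL/6 background. Per the methods, C57BL/6 mice were bought, and the lines with lpr, with kinase-dead IRAK4 or with both came from a separate source. Other differences that came with the kinase-dead line cannot be told apart from the loss of kinase activity. Copy number of the genes in these mice was not measured. Differences said below to go with the mutation are differences between these groups. Irak4 itself lies on chromosome 15.

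Ccl21 is a chemokine, a secreted protein that guides cells carrying the receptor Ccr7, such as dendritic cells and naive T cells. It is made by lymphatic endothelium and by the stroma of lymph nodes. The mouse has more than a single Ccl21 gene, and Ccl21a encodes a serine form and Ccl21b a leucine form of the protein. Copies of Ccl19, Ccl27 and the interleukin-11 receptor gene lie among the Ccl21 copies, as do members of the Fam205a family and many unnamed predicted genes. IRAK4 is the kinase that Toll-like and interleukin-1 receptors use to signal through the adaptor Myd88.

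The near identity of the copies decides how a read count of any of them can be read, and it is shown here for the Ccl21 genes. The coding sequences of Ccl21b, Gm21541, Gm13304 and Gm10591 in GENCODE M21 are 402 bases long, in 4 exons, and differ from each other at 0 positions. Ccl21a differs from them at 2 positions, A84T and T194C, counted from 1 at the A of the start codon, with the base of Ccl21b first. Each of these positions stands in capitals below, in exon 2 (chr4:42255922-42256042, plus strand, for Ccl21b and chr4:42773643-42773763, minus strand, for Ccl21a) and in the first 60 bases of exon 3 (chr4:42256137-42256196 and chr4:42773489-42773548, same strands).
Ccl21b exon 2: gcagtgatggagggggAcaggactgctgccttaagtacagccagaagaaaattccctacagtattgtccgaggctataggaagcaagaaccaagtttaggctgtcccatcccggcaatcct
Ccl21a exon 2: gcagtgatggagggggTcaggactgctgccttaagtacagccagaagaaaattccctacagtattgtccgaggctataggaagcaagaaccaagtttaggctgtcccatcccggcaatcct
Ccl21b exon 3: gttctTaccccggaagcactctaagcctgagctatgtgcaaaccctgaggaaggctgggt
Ccl21a exon 3: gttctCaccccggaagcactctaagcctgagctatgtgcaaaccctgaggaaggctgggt
The capitals mark the only coding bases that set Ccl21a apart. Over the whole transcript of 870 bases, untranslated sequence included, 50.3% of the 771 windows of 100 bases of Ccl21a also occur in transcripts of the other copies. For windows of 50 bases the share is 71.6%, and for windows of 150 bases it is 33.7%.

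For 4 of the 5 genes the sequence before the start of transcription is also nearly the same. RefSeq (GRCm38.p6) places the start of Gm21541, Gm13304 and Gm10591 at a sequence like that of Ccl21a, and 129 bases before it are shown for each, with the 2 columns that differ among them in capitals. The stretches lie at chr4:42773993-42774121 (minus strand) for Ccl21a, and on the plus strand at chr4:41903482-41903610 for Gm21541, chr4:42114656-42114784 for Gm13304 and chr4:42611992-42612120 for Gm10591.
Ccl21a promoter: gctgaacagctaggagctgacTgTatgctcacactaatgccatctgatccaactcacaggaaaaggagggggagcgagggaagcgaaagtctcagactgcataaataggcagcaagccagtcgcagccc
Gm21541 promoter: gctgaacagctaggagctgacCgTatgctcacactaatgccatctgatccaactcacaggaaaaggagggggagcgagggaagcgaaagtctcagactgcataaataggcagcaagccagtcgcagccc
Gm13304 promoter: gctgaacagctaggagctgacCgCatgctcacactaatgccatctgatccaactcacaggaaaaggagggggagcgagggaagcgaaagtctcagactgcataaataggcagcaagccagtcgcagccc
Gm10591 promoter: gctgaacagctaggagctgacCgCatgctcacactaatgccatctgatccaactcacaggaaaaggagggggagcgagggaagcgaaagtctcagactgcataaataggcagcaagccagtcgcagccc
Over 249 bases before the start, Ccl21a and Gm21541 differed at 1 position, and Ccl21a differed from both Gm13304 and Gm10591 at 2 positions. RefSeq places the start of Ccl21b elsewhere, and there 245 bases before the start were 32.2% identical to those of Ccl21a, with 166 differences.

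Libraries held between 279941472 and 572398312 counts. MRL-IRAK4-KD replicate 4 stood apart from the others on the first principal component, which held 51.3% of the variance, and its choroid plexus markers summed to 7744 CPM (counts scaled to a common library size). The library labelled IRAK4-KD replicate 3 had 514 counts of an annotated Fas transcript whose count was 268 to 964 on the MRL background and at most 7 in the other libraries on the C57BL/6 background. It had 0 counts of the transcript that had 345 to 584 in those other libraries. It is used below under its label. Of the 127 members, 25 were lower without overlap in both backgrounds, which here means that every MRL-IRAK4-KD library was below every MRL library and every IRAK4-KD library below every C57BL/6 library, in TMM-scaled CPM. The same held for 0.575% of all 38070 genes, and since these comparisons set the interval, nothing is read from that difference. With both doubtful libraries left out the count was 26, the same 25 genes among them. The reverse, higher without overlap in both backgrounds, held for 0 members and for 0.344% of all genes. As a description of the same comparisons, the edgeR fit over all genes put 20 members past its threshold (adjusted p of 0.05) in MRL-IRAK4-KD against MRL (0.0972% of all genes) and 16 in IRAK4-KD against C57BL/6 (0.147% of all genes), all of them lower. The 16 were past it in both, as were 0.0473% of all genes, and nothing is read from these counts. Bulk libraries cannot tell fewer cells of a type apart from less RNA per cell.

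**Figure D1:**
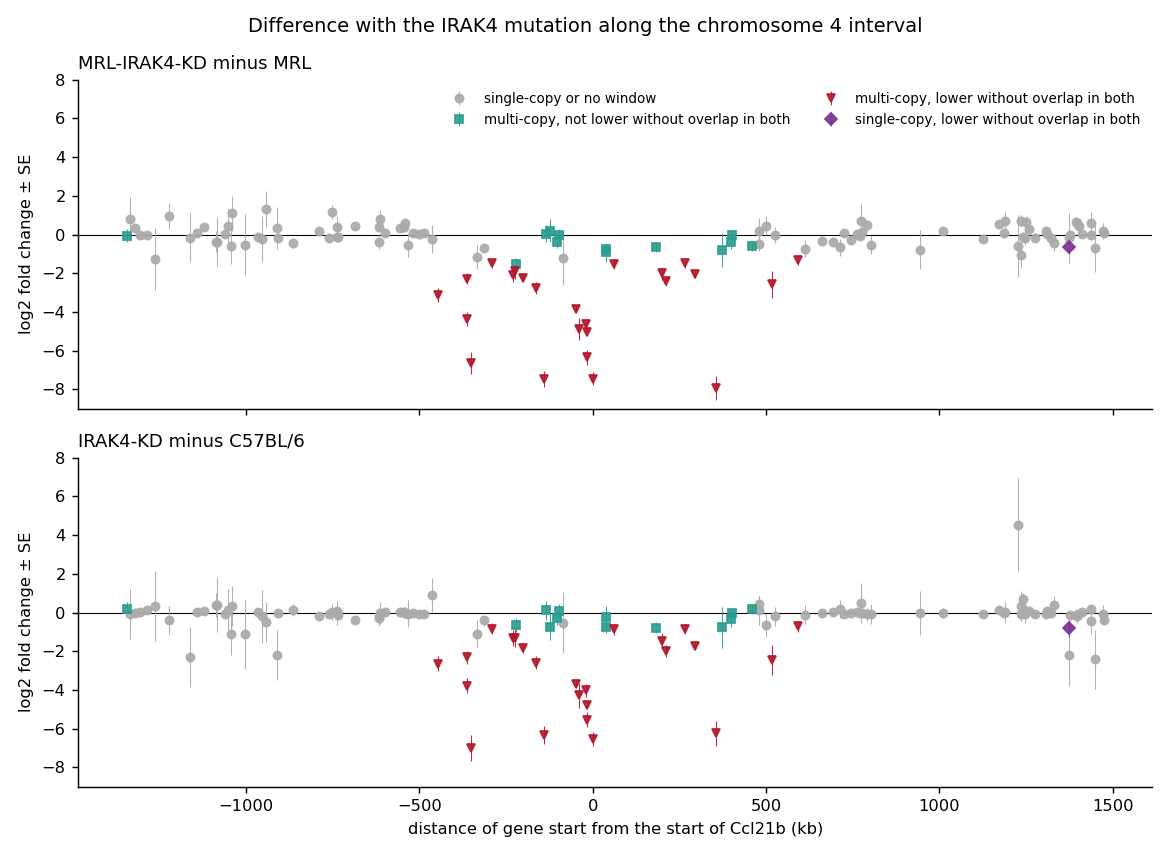
Log2 fold change of each of the 127 members (points, with SE as bars) against distance from the start of Ccl21b in kb, for MRL-IRAK4-KD minus MRL (upper panel) and IRAK4-KD minus C57BL/6 (lower panel), with marker and colour for multi-copy or single-copy genes and for genes lower without overlap in both backgrounds. Of the 25 lower genes, 24 lie between Gm10601 and Fam205a1, among 19 genes that were not lower in both, and Gm12473 lies apart on the right. The log2 fold changes reach down to -7.92 for Gm10591 in the upper panel and -6.98 for Gm21541 in the lower. The genes outside the run have a median of 101% of the intact mean left in the upper comparison and 98.0% in the lower.

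All but 1 of the lower genes lay in a single stretch, with other genes between them. From Gm10601 (chr4:41809083-41810504) to Fam205a1 (chr4:42848071-42853888), a run of 1044.806 kb held 43 members, of which 24 were lower without overlap in both backgrounds, 18 on the plus and 6 on the minus strand. Of the 84 members outside this run, 1 was. The 24 genes summed to between 61.4 and 89.3 CPM in MRL, 7.14 and 17.0 in MRL-IRAK4-KD, 68.4 and 80.6 in C57BL/6 and 12.6 and 17.4 in IRAK4-KD libraries, so both mutant groups lay far below both intact groups. All 127 members summed to between 2200 and 2521 CPM in every library. The percent left, the mean CPM of the mutant group as a percent of that of the intact group, had a median of 15.8% over the 24 genes in the MRL background (0.374% to 40.3%) and 17.5% in the C57BL/6 background (0.791% to 61.2%). Outside the run the medians were 101% and 98.0%. Of the 24 genes, 4, all of them Ccl21 copies, kept less than 2% in both backgrounds, and the 4 Fam205a genes kept between 30% and 70%. In between, 11 genes kept between 2% and 30% in both backgrounds, and the remaining 5 lay across these bounds.

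The Ccl21 genes other than Ccl21a had the least left. Ccl21b (chr4:42255767-42256432, plus strand), the leucine form, had 1.46, 3.05, 3.07 and 2.52 CPM in the MRL libraries and 0.0103, 0.0140, 0.0115 and 0.0225 in the MRL-IRAK4-KD libraries. In the C57BL/6 libraries it had 1.72, 1.92 and 1.79 CPM, and in the IRAK4-KD libraries 0.0198, 0.0175 and 0.0198. The lowest intact library was far above the highest mutant library in both backgrounds, the log2 fold change was -7.45 ± 0.33 (SE) in MRL and -6.55 ± 0.37 in C57BL/6 mice, and 0.578% and 1.05% were left. Those values rest on 5 to 11 counts per mutant library against 553 to 1740 per intact library.

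The predicted genes with the Ccl21b coding sequence had the same pattern. Gm13304 (chr4:42114817-42115917) had 2.48, 4.59, 4.15 and 2.59 CPM in MRL and 0.0144, 0.00842, 0.0207 and 0.0354 in MRL-IRAK4-KD libraries, against 2.99, 3.01 and 3.94 in C57BL/6 and 0.0595, 0.0375 and 0.0270 in IRAK4-KD libraries. Gm21541 (chr4:41903610-41904743) had 1.24, 3.18, 2.12 and 2.52 CPM in MRL, 0.0144, 0.0140, 0.00919 and 0.0580 in MRL-IRAK4-KD, 2.39, 2.53 and 1.47 in C57BL/6 and 0.0273, 0.0125 and 0.0108 in IRAK4-KD libraries. In both genes the mutant libraries lay well below the intact ones, and the highest Gm21541 value among the MRL-IRAK4-KD libraries was that of replicate 4. Gm10591 (chr4:42612195-42612860) had 1.11, 1.86, 1.98 and 1.898 CPM in MRL and 0.00619, 0.00561, 0.0138 and 0 in MRL-IRAK4-KD libraries, and 0.725, 0.727 and 2.17 in C57BL/6 and 0.0173, 0.0175 and 0.0126 in IRAK4-KD libraries. Its mutant libraries held 0 to 7 counts each, so the percent left of 0.374% and 1.31% is close to the limit of detection.

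Ccl21a (chr4:42772860-42773993, minus strand), the serine form, was low in the intact mice too. Per kb of transcript, the mean of the MRL libraries was 0.317 CPM for Ccl21a, against 6.28 for Ccl21b, 4.26 for Gm10591, 4.13 for Gm13304 and 2.61 for Gm21541. The annotated transcripts of Ccl21b and Gm10591 hold only the 402 coding bases, against 837 bases for Gm13304 and 870 for Gm21541 and Ccl21a. The order among the copies other than Ccl21a thus depends on annotated length. Ccl21a was the lowest in CPM without this scaling too. Its libraries had 0.0623, 0.432, 0.137 and 0.470 CPM in MRL, 0.0371, 0.0590, 0.0436 and 0.0451 in MRL-IRAK4-KD, 0.257, 0.320 and 0.632 in C57BL/6 and 0.156, 0.0250 and 0.0414 in IRAK4-KD mice. The MRL groups were separated by little, with MRL replicate 1 just above the highest MRL-IRAK4-KD library, and the log2 fold changes were -2.57 ± 0.68 and -2.44 ± 0.77. For Ccl21a 16.8% and 18.4% were left. How reads that match several copies were divided among them is not stated in the sources used here, so the level of any single copy is uncertain, and the sum is less so. The 5 Ccl21 genes together had between 6.36 and 13.1 CPM in MRL, 0.0825 and 0.161 in MRL-IRAK4-KD, 8.08 and 10.0 in C57BL/6 and 0.110 and 0.280 in IRAK4-KD libraries. This sum leaves out Ccl21 genes on unplaced scaffolds, among them Ccl21c (mean of 1.07 CPM in MRL) and a gene named Ccl21b (2.43).

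**Figure D2:**
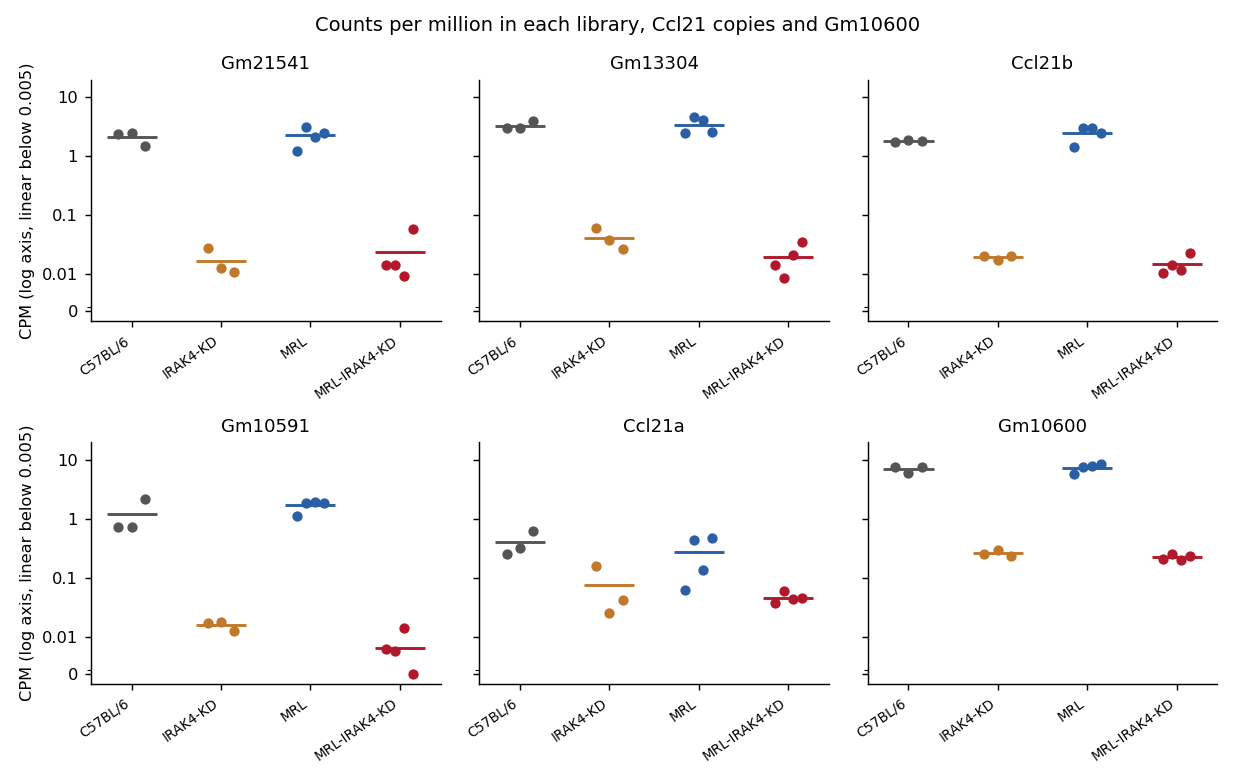
CPM of each library (points, on a log axis that is linear below 0.005) for the 5 Ccl21 genes and Gm10600, by group, with a line at each group mean. Every mutant library lies below every intact library of its background, widely for Gm21541, Gm13304, Ccl21b, Gm10591 and Gm10600 and narrowly for Ccl21a in MRL mice.

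Beside Ccl21b lay a block of genes with little left. Gm10600 (chr4:42240639-42242685), a predicted protein-coding gene, had 5.89, 7.62, 7.93 and 8.55 CPM in MRL, 0.208, 0.255, 0.198 and 0.238 in MRL-IRAK4-KD, 7.62, 5.97 and 7.65 in C57BL/6 and 0.253, 0.300 and 0.232 in IRAK4-KD libraries. The mutant libraries were close to each other and far below the intact ones, with log2 fold changes of -5.06 ± 0.18 and -4.76 ± 0.21 and 3.00% and 3.70% left. Its neighbours Gm17081, Gm5859, Gm13301 and Gm17167 had between 1.16% and 6.84% left in the MRL background and between 2.14% and 7.81% in the C57BL/6 background. Gm17167 and Gm13301 overlap on the same strand, so their counts are not independent. Per kb, Gm10600 had a mean of 3.66 CPM, Gm13301 3.14, Gm5859 2.86 and Gm17167 1.57 in MRL libraries.

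Gm10600 belongs with 14 other members, most of them unnamed, that are linked by shared windows of 100 bases, from Gm10601 at the left end of the run to Gm10593. Of these 15 genes, 13 were lower without overlap in both backgrounds, and the 15 together had between 38.5 and 53.7 CPM in MRL, 3.51 and 8.67 in MRL-IRAK4-KD, 40.7 and 49.9 in C57BL/6 and 6.16 and 9.33 in IRAK4-KD libraries. Those with the least left after Gm10600 were Gm5859 (4.03% and 6.17%) and the pseudogene Gm13302 (4.84% and 7.28%). Gm3883 had 24.9% and 35.9% left, and Gm21093 had 27.0% and 40.4%. The other members of the group with lower levels were Gm10601 (11.4% and 15.9%), Gm13307 (20.5% and 20.1%), Gm13303 (23.1% and 40.1%), Gm3892 (20.9% and 27.7%), Gm3893 (14.8% and 16.6%), Gm2163 (18.7% and 25.3%), Gm10593 (24.2% and 30.7%) and Gm17167. Gm13307 lies antisense over Gm13302 and Gm21541, and Gm2163 spans Fam205a2 and Gm10593. Whether the counting used strand is not stated in the sources used here, so reads of these overlapping genes cannot be told apart. The 2 members of the group that were not lower, the antisense gene Gm13299 and the noncoding RNA Gm21980, had means between 0.0271 and 0.0741 CPM in every group.

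The Fam205a genes kept the largest share among the 24. Fam205a2, Fam205a3 and Fam205a4 have coding sequences of 3927 bases that differ at 0 positions, and Fam205a1 has 3945 coding bases. The first 144 coding bases are shown for Fam205a3 (chr4:42318334-42318477, plus strand) and Fam205a1 (chr4:42853683-42853826, minus strand), the last gene of the run, with the differing bases T61A and C94T (Fam205a3 first) in capitals.
Fam205a3 exon 1: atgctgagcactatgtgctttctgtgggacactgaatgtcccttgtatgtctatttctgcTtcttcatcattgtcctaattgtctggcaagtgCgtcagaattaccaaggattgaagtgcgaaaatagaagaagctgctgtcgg
Fam205a1 exon 1: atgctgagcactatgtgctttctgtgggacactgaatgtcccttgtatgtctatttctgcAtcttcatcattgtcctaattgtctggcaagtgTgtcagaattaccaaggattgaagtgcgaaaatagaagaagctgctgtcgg
Fam205a4 (chr4:41966058-41971856) had 3.03, 5.75, 4.81 and 4.67 CPM in MRL, 1.47, 2.39, 1.64 and 1.05 in MRL-IRAK4-KD, 3.72, 3.69 and 3.69 in C57BL/6 and 1.72, 2.51 and 1.99 in IRAK4-KD libraries. The groups did not overlap but lay much closer than those of the Ccl21 genes, with log2 fold changes of -1.48 ± 0.25 and -0.83 ± 0.28 and 35.9% and 56.1% left. Fam205a3 had 34.9% and 55.3% left, and Fam205a2 had 36.1% and 55.9%. Fam205a1 had 1.47, 3.11, 2.69 and 2.61 CPM in MRL, 0.900, 1.39, 1.06 and 0.631 in MRL-IRAK4-KD, 2.48, 1.93 and 1.97 in C57BL/6 and 1.26, 1.27 and 1.38 in IRAK4-KD libraries. It had 40.3% and 61.2% left, the largest shares of the 4. The 4 Fam205a genes together had between 9.73 and 18.9 CPM in MRL, 3.50 and 7.90 in MRL-IRAK4-KD, 11.98 and 12.8 in C57BL/6 and 5.97 and 8.01 in IRAK4-KD libraries.

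**Figure D3:**
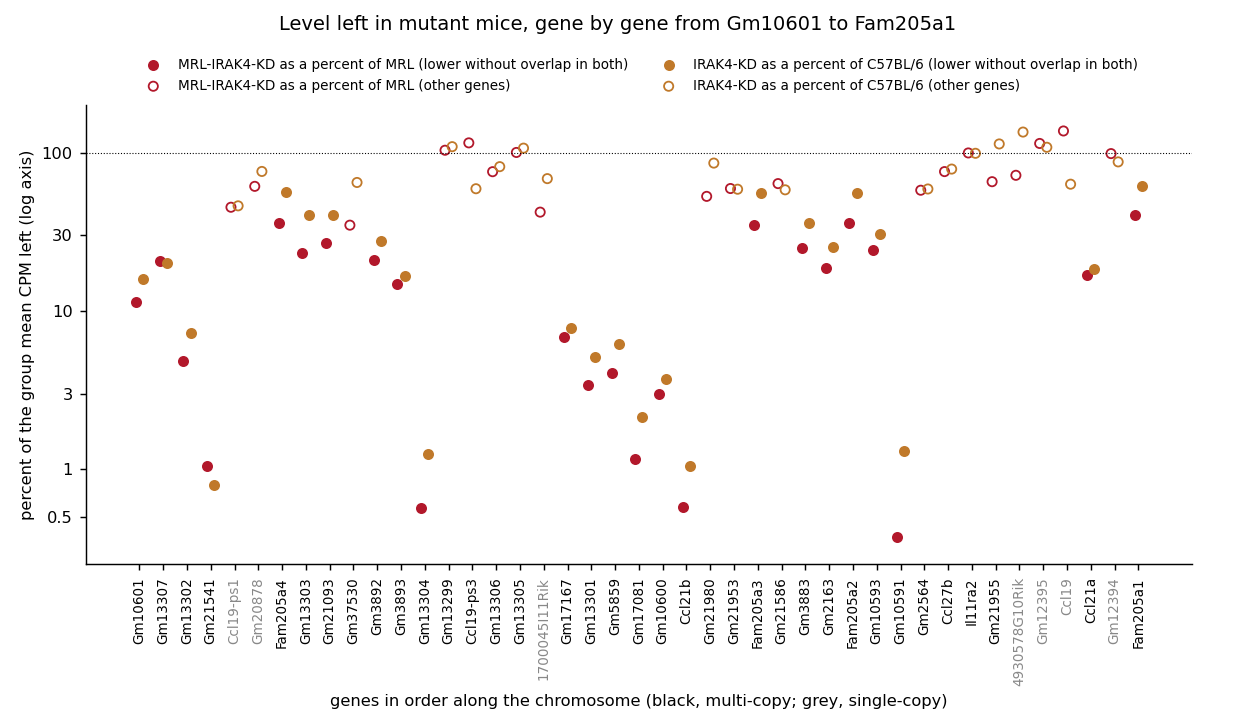
Percent of the group mean CPM left in mutant mice (log axis) for the 43 members from Gm10601 to Fam205a1 in their order on the chromosome, for both backgrounds, with filled points for genes lower without overlap in both backgrounds and grey names for single-copy genes. All filled points carry black, multi-copy names, and Gm21541, Gm13304, Ccl21b and Gm10591 are the lowest.

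The copies of Ccl27, Ccl19 and the interleukin-11 receptor gene in the same run were not lower without overlap in both backgrounds. A gene was called multi-copy where at least 50% of its 100-base transcript windows also occur in transcripts of other genes that it does not overlap. The matches of Ccl21b and Il11ra2 held no scaffold gene, although scaffold genes of the same names exist. Copies on scaffolds may therefore be missed, and a gene called single-copy may have a copy there. By this measure 36 of the 43 genes of the run are multi-copy, and all 24 lower genes are among them. The 7 single-copy genes were not lower in both, with medians of 71.9% and 76.0% left. Most of them share some sequence, Ccl19 and Gm20878 among them: with at least 10% of windows as the bound, 41 genes were multi-copy and 2 single-copy, and with windows of 50 bases 39 and 4, the 24 lower genes being multi-copy each time. The other 12 multi-copy genes had between 34.8% and 115% left in the MRL background and between 58.2% and 113% in the C57BL/6 background. Of the 19 genes of the run that were not lower in both, 2 were lower without overlap in the MRL background only, 4 in the C57BL/6 background only and 13 in neither.

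Il11ra2 and Gm13305, copies of the gene for the interleukin-11 receptor alpha chain, had similar means with and without the mutation. Il11ra2 (chr4:42656355-42661893) had 0.937, 0.933, 0.832 and 0.924 CPM in MRL, 0.883, 0.786, 0.662 and 1.28 in MRL-IRAK4-KD, 0.652, 0.682 and 1.03 in C57BL/6 and 0.718, 0.988 and 0.634 in IRAK4-KD libraries. The ranges overlapped in both backgrounds, and the means were 99.5% and 99.0% of those of the intact groups. Gm13305 had 100% and 107%. Ccl27b, a chemokine gene whose product acts through Ccr10 on T cells that home to skin, had 1.01, 2.41, 2.20 and 2.04 CPM in MRL, 0.957, 1.56, 0.937 and 2.36 in MRL-IRAK4-KD, 1.02, 1.16 and 1.41 in C57BL/6 and 0.887, 1.27 and 0.674 in IRAK4-KD libraries. Its groups overlapped, with 75.9% and 78.7% of the intact means, and its copy Gm13306 had 75.8% and 81.5%.

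Ccl27a lies left of the run, and 3 related genes lie in it. Gm20878, Gm21953 and Gm21586 had 61.2%, 59.3% and 63.7% left in the MRL background, with overlapping groups, and 76.0%, 58.7% and 58.2% in the C57BL/6 background, where the groups did not overlap. With 3 libraries in each C57BL/6 background group, nothing is read from that gap. Ccl19 (chr4:42754525-42756577), the other ligand of Ccr7, lies between Il11ra2 and Ccl21a. It had 0.157, 0.158, 0.152 and 0.320 CPM in MRL, 0.182, 0.146, 0.177 and 0.573 in MRL-IRAK4-KD, 0.295, 0.247 and 0.202 in C57BL/6 and 0.280, 0.0926 and 0.0973 in IRAK4-KD libraries. Its groups overlapped in both backgrounds, and it had 137% of the MRL mean and 63.2% of the C57BL/6 mean. Gm2564, a predicted gene related to Ccl19, had 57.9% and 58.9% left at means of at most 0.142 CPM, also with overlap in the MRL background. The pseudogenes Ccl19-ps1 and Ccl19-ps3 had fold changes of -1.15 ± 0.61 and 0.20 ± 0.59 in the MRL background and -1.10 ± 0.70 and -0.75 ± 0.69 in the C57BL/6 background. Replicate 4 was the highest MRL-IRAK4-KD library for Ccl19, Ccl27b, Gm13305 and Il11ra2, and it was the library with the high choroid plexus markers. Without that library the log2 fold change in the MRL background was -0.23 for Ccl19 against 0.45 with it, so that its direction rests on replicate 4. It was -0.74 against -0.40 for Ccl27b, -0.65 against -0.40 for Gm13306, -0.35 against 0.00 for Gm13305, -0.23 against -0.01 for Il11ra2 and -1.91 against -0.80 for Gm2564.

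**Figure D4:**
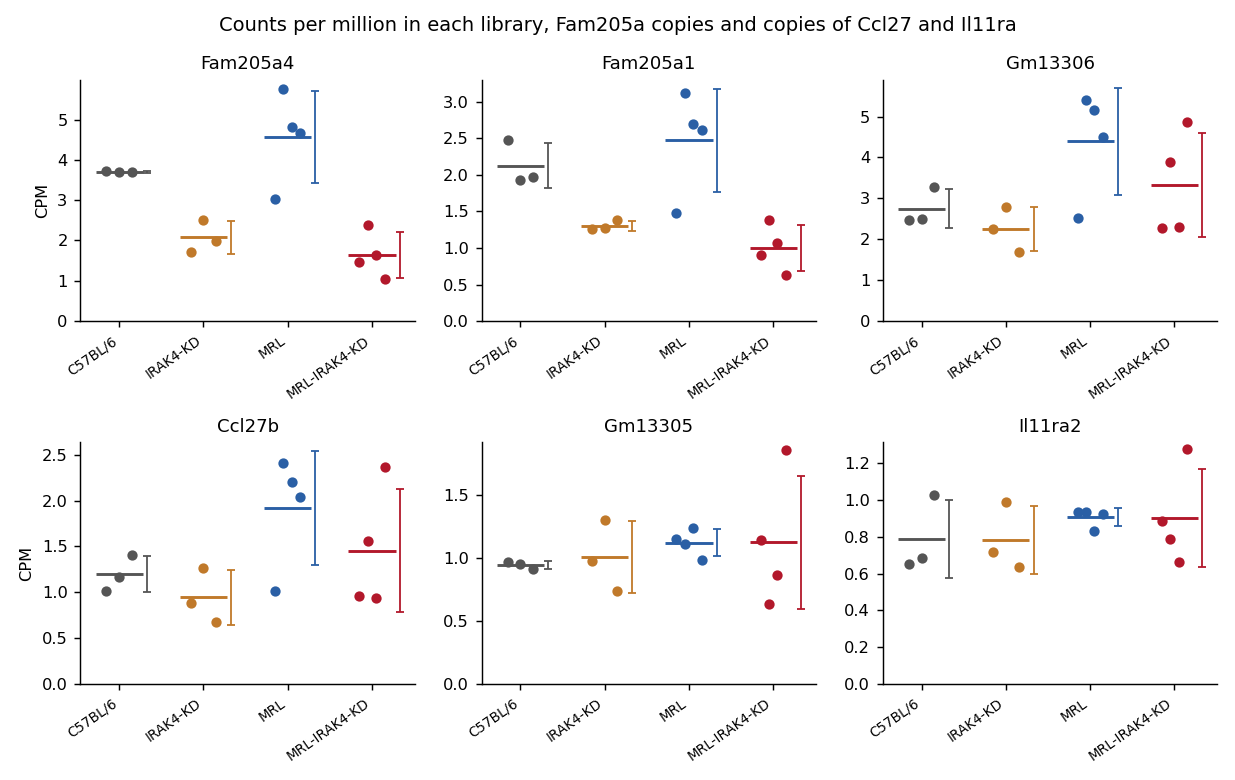
CPM of each library (points) with the group mean (line) and SD (bar) for Fam205a4, Fam205a1, Gm13306, Ccl27b, Gm13305 and Il11ra2, by group. Mutant and intact libraries are separate for both Fam205a genes and overlap for the copies of Ccl27 and of the interleukin-11 receptor gene.

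On the left the run ended at Gm10601. The nearest tested gene, the pseudogene Gm12407, ends 15.482 kb before Gm10601, was not lower in both, and had means of at most 0.0473 CPM. Beyond it, Ccl27a had 29.0, 47.1, 43.7 and 41.1 CPM in MRL, 35.2, 42.6, 33.1 and 62.3 in MRL-IRAK4-KD, 31.2, 34.2 and 40.9 in C57BL/6 and 33.9, 37.6 and 30.9 in IRAK4-KD libraries, all ranges overlapping. Galt, which encodes an enzyme of galactose breakdown, had log2 fold changes of 0.05 ± 0.13 and -0.05 ± 0.16. Cntfr, the receptor gene for ciliary neurotrophic factor, had 0.07 ± 0.15 and 0.01 ± 0.17. Il11ra1, the interleukin-11 receptor gene outside the run, had 0.33 ± 0.22 and 0.04 ± 0.25. None of the 42 members to the left was lower without overlap in both backgrounds. Dctn3, a dynactin subunit gene among them, had 0.59 ± 0.25 in the MRL background and 0.00 ± 0.28 in the C57BL/6 background. MRL-IRAK4-KD replicate 4 had 105 CPM of it against 40.0 to 45.8 in the other MRL-IRAK4-KD libraries, and without that library the first value was 0.15.

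On the right, Fam205c lies next to Fam205a1 and is single-copy. It had 1.44, 0.896, 1.36 and 2.03 CPM in MRL, 0.780, 1.44, 1.00 and 0.209 in MRL-IRAK4-KD, 1.52, 1.07 and 1.09 in C57BL/6 and 1.02, 0.793 and 1.61 in IRAK4-KD libraries, with overlap in both backgrounds. Phf24 and Dnajb5, a gene of the heat shock protein 40 family, follow and were not lower in both. Vcp, which encodes an abundant ATPase that extracts ubiquitinated proteins, had log2 fold changes of 0.10 ± 0.10 and -0.07 ± 0.12, Stoml2, a mitochondrial membrane protein gene, -0.07 ± 0.16 and -0.04 ± 0.18, and Tln1, the talin gene, -0.15 ± 0.11 and -0.09 ± 0.13. Tpm2, a tropomyosin gene, had 0.28 ± 0.23 and 0.07 ± 0.26. Of the 42 members to the right of the run, 41 are single-copy and 0 are multi-copy. Gm12473 (chr4:43631539-43641533, minus strand), a single-copy gene antisense to the natriuretic peptide receptor gene Npr2, was the 1 gene among them that was lower without overlap in both backgrounds, 777.651 kb beyond Fam205a1 and with 31 tested genes in between.

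Gm12473 had 1.57, 1.76, 1.44 and 1.45 CPM in MRL, 1.22, 1.43, 1.12 and 0.270 in MRL-IRAK4-KD, 1.58, 0.974 and 1.24 in C57BL/6 and 0.486, 0.836 and 0.845 in IRAK4-KD libraries. Both gaps were narrow, and Npr2, on the other strand, had fold changes of -0.04 ± 0.09 and -0.10 ± 0.10. For Gm12473 64.8% and 57.02% were left. With scaling by library size only, Gm12473 was no longer lower without overlap in both. Counted to this gene, the affected stretch reaches from 41809083 to 43641533 and measures 1832.451 kb with 75 members. On the rest of chromosome 4, 6 of 1980 genes (0.303%) were lower without overlap in both backgrounds. None of the 270 genes to the left of the interval was, and the nearest on the right was Acer2, which starts at 86874396.

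The reference also holds genes on unplaced scaffolds with the names of interval genes. They are called copies here by name only and are not members. Of 39 scaffold genes tested, 21 lie on scaffolds that hold such genes. Of these 21, 10 were lower without overlap in both backgrounds, and their sequences were not compared with the interval. Ccl21c, another Ccl21 gene, had 0.874% and 2.48% left. Of 2 scaffold copies named Ccl21b, 1 had 0.794% and 1.35% left and the other 4.81% and 3.82%. A scaffold copy of Fam205a2 had 35.5% and 57.04%. A scaffold copy of Ccl21a had 38.5% and 42.4% left but was not lower without overlap in both.

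The comparisons below were tested. Those between groups alike in IRAK4 did not set the interval. The interaction is the difference between both comparisons of mutant with intact mice, which did. MRL and C57BL/6 mice, both with intact IRAK4, did not differ detectably in any member: 0 of 127 were called (0.0% of all genes). DESeq2 called 0 members, against 203 of all genes. By edgeR 5 members had an unadjusted p under 0.05 (5.55% of all genes, 2112). They were Gm21586 (log2 fold change 0.71), Gm13306 (0.68), Tln1 (0.33), Olfr70 (-2.09) and Sit1 (6.07), none of them among the 25, and the lowest adjusted p by edgeR was 0.692, that of Olfr70. Over the 25 genes the fold changes ran from -0.55 to 0.50 with a median of 0.08, and the lowest unadjusted p was 0.0867, that of Ccl21b. Ccl21b was 0.48 higher in MRL on the log2 scale, with a 95% interval from -0.08 to 1.04, Gm10600 0.08 (-0.27 to 0.44), Fam205a4 0.30 (-0.26 to 0.87), and Ccl21a -0.55 (-1.99 to 0.90). Such intervals hold 0 and do not reach the size of the differences seen with the IRAK4 mutation in Ccl21b, Gm10600 and Fam205a4 in MRL mice. In C57BL/6 mice the Fam205a4 difference was -0.83, a size that its interval does reach.

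Between the 2 mutant groups, MRL-IRAK4-KD and IRAK4-KD, 0 members were called (0.0735% of all genes), and 19 had an unadjusted p under 0.05 by edgeR (8.63% of all genes, 3284). DESeq2 called 0 members, against 305 of all genes. Of the 25 genes, 22 had lower means of the fit in MRL-IRAK4-KD, with a median of -0.36, and 2 of them had an unadjusted p under 0.05. They were Gm13304 (-1.07 ± 0.42, 95% interval -1.98 to -0.17) and Gm17081 (-0.86), and by edgeR the adjusted p of Gm13304 was 0.553. MRL-IRAK4-KD replicate 4 was the lowest library of its group in the sum of the Gm10600 group (3.51 CPM against 6.75 to 8.67). It was also the lowest for the Fam205a genes (3.50 against 4.86 to 7.90), but the highest for the Ccl21 genes (0.161 against 0.0825 to 0.101). Nothing is read from the signs of the 25 genes. Gm21955, which is not among the 25, had the lowest adjusted p of the members, 0.434. It had 3.04, 4.32, 2.57 and 2.36 CPM in MRL-IRAK4-KD and 4.95, 5.09 and 7.38 in IRAK4-KD libraries, which did not overlap. The percent left was smaller in the MRL than in the C57BL/6 background for 22 of the 24 genes of the run, and the difference between backgrounds was tested as an interaction. Most of these genes share sequence with each other, so counts of them are not counts of independent observations.

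The interaction called 0 members (0.00263% of all genes), 2 members had an unadjusted p under 0.05 (4.17% of all genes, 1588), and DESeq2 called 0. Those 2 were Dnaic1 (0.81), which encodes a dynein chain of motile cilia, and Gm21955 (-0.79). For the 25 genes the difference between the fold changes of the backgrounds ran from -1.68 to 0.36 on the log2 scale with a median of -0.58, and 22 were negative. The interval and the 25 genes were chosen from the same comparisons, so nothing is read from these signs. Ccl21b had -0.90 (95% interval -1.84 to 0.04), Gm13304 -1.13 (-2.29 to 0.02) and Gm10591 -1.68 (-3.40 to 0.04), with an adjusted p of 0.914 for these genes by edgeR. The intervals reach 0 but also hold differences of over 1 on the log2 scale, so that neither a larger nor an equal difference in MRL mice was shown. The 5 Ccl21 genes summed into 1 feature gave 0.22 ± 0.32 for MRL minus C57BL/6, -0.61 ± 0.35 for MRL-IRAK4-KD minus IRAK4-KD and -0.83 ± 0.47 for the interaction. By edgeR the adjusted p of these sums was 0.569 between the mutant groups and 0.924 for the interaction. In the interaction and in the comparison of the mutant groups the library labelled IRAK4-KD replicate 3 counts as a mouse without lpr, and without it 0 members were called in both as well.

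**Figure D5:**
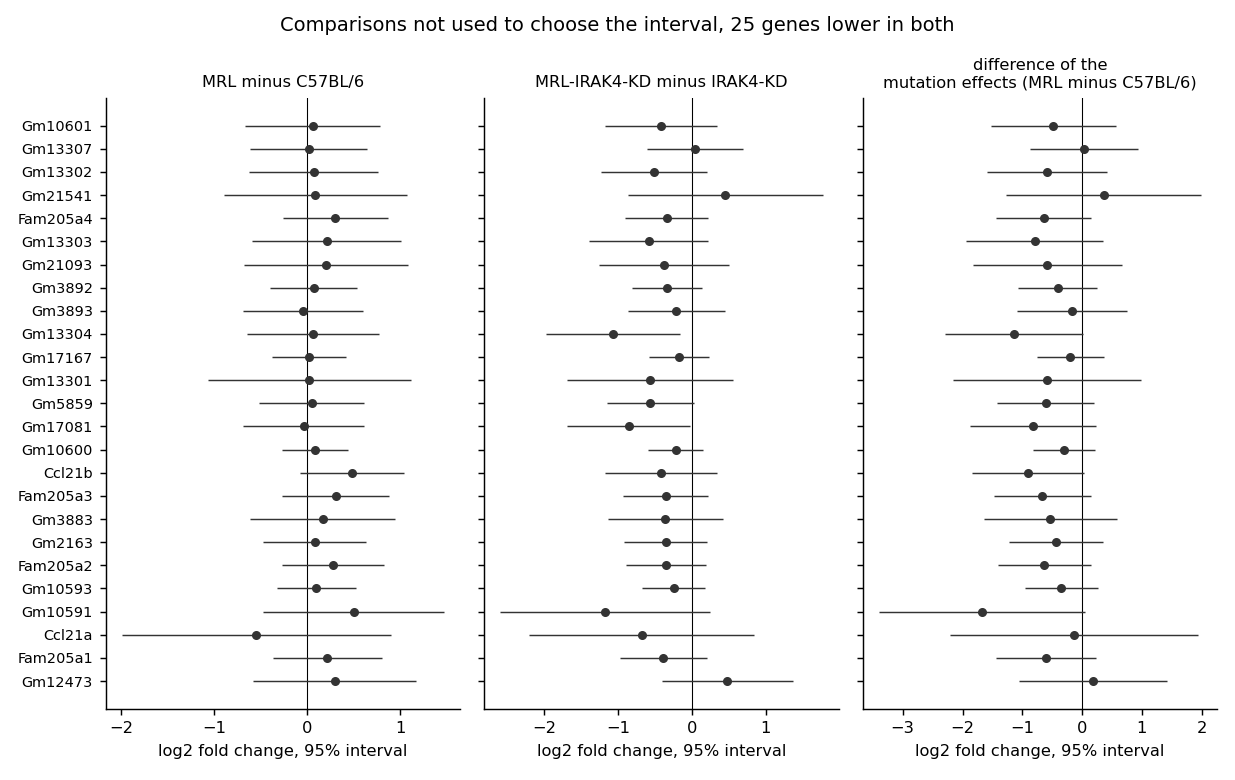
Log2 fold change with 95% interval for the 25 genes lower without overlap in both backgrounds, in MRL minus C57BL/6, in MRL-IRAK4-KD minus IRAK4-KD and in the difference between the mutation's fold changes of the backgrounds. The points of the left panel lie on both sides of 0, from -0.55 to 0.50, and 22 of 25 points lie below 0 in each of the other panels. Most of these genes share sequence with others of the 25, so the points are not independent.

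The genes through which the ligands of the interval act were not called. Of the 11 genes listed as receptors and partners, Ccr7, Ackr4, Cxcr3, Ccr10, Il11, Il6st and Lifr among them, all were tested and 0 were called by edgeR in any of the 5 comparisons. DESeq2 called 0 as well. Of the 11, 2 had an unadjusted p under 0.05 in MRL-IRAK4-KD minus MRL (11.4% of all genes). In MRL-IRAK4-KD minus IRAK4-KD it was 1 (8.63% of all genes), and in the other comparisons 0. Ccr7, the signalling receptor of Ccl19 and Ccl21, had means of 0.00911 CPM in MRL, 0.0107 in MRL-IRAK4-KD, 0.0312 in C57BL/6 and 0.0517 in IRAK4-KD mice. Ackr4, which takes up the same ligands without signalling through G proteins, had 0.528, 0.433, 0.481 and 0.403 CPM in the same order.

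Markers of cells that could carry these transcripts are given beside them. Neuronal markers summed to between 4644 and 6934 CPM. Of the 6 lymphatic endothelial markers, 2 were lower without overlap in both backgrounds (0.575% of all genes), Ccl21a and Flt4. Ccl21a is a member of the interval, which was set around such genes, so nothing is read from its part in this count. Flt4 is the receptor gene for vascular endothelial growth factor C. The list, Ccl21a included, summed to between 69.0 and 99.4 CPM in MRL, 56.7 and 77.3 in MRL-IRAK4-KD, 61.5 and 89.7 in C57BL/6 and 61.4 and 74.2 in IRAK4-KD libraries. Flt4 had between 1.76 and 3.89 CPM in MRL, 0.795 and 1.72 in MRL-IRAK4-KD, 1.16 and 1.33 in C57BL/6 and 0.630 and 0.914 in IRAK4-KD libraries. Of the 4 blood endothelial markers 1 was lower, Flt1, and that list summed to between 95.8 and 210 CPM in MRL, 66.1 and 107 in MRL-IRAK4-KD, 66.4 and 77.6 in C57BL/6 and 44.8 and 53.5 in IRAK4-KD libraries. Lymphocyte markers summed to between 0.432 and 1.46 CPM and microglial markers to between 167 and 252 CPM over all libraries. Meningeal fibroblast markers summed to between 51.3 and 160 CPM, pituitary markers to between 0.492 and 85.5 CPM and choroid plexus markers to between 64.1 and 7744 CPM. Of the genes of these 5 lists and of the neuronal list, 0 were lower without overlap in both backgrounds. No gene of any marker list was called by edgeR in any comparison. Of the 43 marker genes, Ccl21a among them, 11 had an unadjusted p under 0.05 in MRL-IRAK4-KD minus MRL (11.4% of all genes) and 5 in IRAK4-KD minus C57BL/6 (3.80%). There were 10 in MRL minus C57BL/6 (5.55% of all genes) and 8 in MRL-IRAK4-KD minus IRAK4-KD (8.63%). The interaction had 4, with its share over all genes given above. The part of these cells in the lower counts was not tested.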

How the data were processed

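Per the labels and methods, the authors aligned hippocampal reads to mm10 with HISAT2 2.1.0 and SAMtools 1.9. The deposited values are counts of genes and of transcripts, whole and not normalized, that StringTie 2.1.0 computed from coverage. The annotation is not given in the sources used here, and identifiers match GENCODE M21. Totals were 1.40 to 2.08 times the reads the core listed, so counts are not molecules. The labels name a KAPA HyperPrep mRNA kit, and the methods SMART-seq with NexteraXT, single-end. Rows that are not Ensembl genes (0.0254% to 0.188% of counts) were left out.

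Genes with at least 10 counts in all entered edgeR 4.0.16 (R 4.3.3; TMM, robust quasi-likelihood, 1 model of 4 group means over 14 libraries), with Benjamini-Hochberg adjustment over 38070 genes and a threshold of 0.05. The fit was tested on simulated data. Alternatives, DESeq2 1.42.0 among them, are in the closing section. The edgeR p-values set a difference between groups against the spread between mice, estimated over all 4 groups.

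Multi-copy genes were found by matching windows of 100 bases of GENCODE M21 transcripts, on both strands. Promoters came from RefSeq on GRCm38.p6, where Ccl21b has another start. The members, the lists of receptors and markers and the named genes were chosen with earlier results of these data known. Named were all copies of Ccl21, Ccl19, Ccl27 and the interleukin-11 receptor gene, every gene lower or higher without overlap in both backgrounds, the 3 tested genes on each side, any member called in a tested comparison, and well-known single-copy genes, among them Galt, Cntfr, Dctn3, Vcp, Stoml2, Tln1 and Tpm2. Other genes in the text are neighbours or family members of those and members with an unadjusted p under 0.05, chosen after their values were seen. Some genes under this rule are not reported here. Plots were made in matplotlib 3.10.9 (Python 3.11.15).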

Additional observations from a re-analysis of the deposited data

Results flagged for a closer look

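A library stood far from the others of its group in 11 of 100 groups of 4 examined over 50 named genes (1 in 20, or 5%, is the share chance gives), judged by Dixon's criterion on the gap to the nearest library, and none of these groups had 3 libraries since those are not tested. MRL-IRAK4-KD replicate 4, the library that stood apart as a whole, accounted for 5 of them. It had 105.0 CPM of Dctn3 against 40.0 to 45.8 in the other libraries of its group, 26.2 of Hint2 against 8.59 to 9.62, and 21.7 of Stoml2 against 38.7 to 41.1. It also had 0.573 CPM of Ccl19 against 0.146 to 0.182 and 0.058 of Gm21541 against 0.00919 to 0.0144, the latter still below the lowest MRL library. MRL replicate 1 accounted for 4. It had 0.664 CPM of Gm10601 against 0.926 to 0.977, 2.71 of Gm3892 against 3.79 to 4.00, 0.406 of Gm21953 against 0.805 to 0.870 and 1.11 of Gm10591 against 1.86 to 1.98, always the lowest MRL library. In the 3 of these genes that were lower with the mutation, Gm10601, Gm3892 and Gm10591, its value still lay above every MRL-IRAK4-KD library. MRL replicate 3 had 0.832 CPM of Il11ra2 against 0.924 to 0.937, and MRL replicate 4 had 0.32 CPM of Ccl19 against 0.152 to 0.158. Ccl19 is thus the 1 gene with such a library in both MRL groups.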

How the results depend on the processing

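Summing near-identical copies into 1 feature moved the counts of features most, by construction, since many members then share a feature: 4 were called in MRL-IRAK4-KD minus MRL, 4 in IRAK4-KD minus C57BL/6 and 4 lower in both, and 6 were lower without overlap in both backgrounds, the Ccl21, Fam205a and Gm10600 groups and 3 single genes. The length of the affected stretch, 1832.451 kb counted to Gm12473, was 803.778 kb when bounded by genes called lower in both, 1044.806 kb with library size only and 1044.806 kb over multi-copy genes only, the last 2 chosen after seeing the data. Leaving out each library in turn gave 16 to 22 called members in MRL-IRAK4-KD minus MRL, 12 to 19 in IRAK4-KD minus C57BL/6 and 12 to 19 in both, and 25 to 28 members lower without overlap in both, the 25 of the full data always among them. The tested comparisons, the receptors and partners, and the genes higher in both stayed at 0 in each of these, and also with DESeq2. DESeq2 called 25, 17 and 17 members in the first 3 counts. Over all genes it called 397 in MRL-IRAK4-KD minus MRL and 162 in IRAK4-KD minus C57BL/6, more than edgeR did. For the fits with a library left out or with the replicate block no share over all genes is given, and nothing is read from their counts. With the replicate block the counts were 19, 16 and 16, and the replicate numbers do not pair the mice, since the correlations of deviations between same-numbered libraries ran from -0.0952 to 0.285. Among the alternative values for single named genes, 0 changed direction where called, 71 fell below the threshold, 14 rose above it and 2149 kept their side. Depth limits the values of Gm10591, which had 0 to 7 counts per mutant library, and of Ccl21a, which had 10 to 63.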
